A study of Mus musculus with 6 samples.

Results

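The expression of 10 transcription factor genes that set the fate of CD8+ T cells was examined, *Tcf7*, *Lef1*, *Foxo1*, *Bach2*, *Id3*, *Eomes*, *Tbx21*, *Zeb2*, *Id2* and *Prdm1*. They were matched by gene name in the transcript files of 6 RNA-Seq libraries, and all 10 were found among the 54446 annotated genes. Of the 10, 9 were among the 14991 genes whose mean level reached 1 FPKM, which entered the tests, and *Prdm1* was not. FPKM relates the fragments of a gene to its length and to how deeply the library was sequenced, summed here over the annotated transcripts of the gene, so that levels can be set against each other between genes.

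The libraries came from CD8+ T cells of the spleen of wild type C57BL/6 mice aged 8 weeks, isolated by negative selection, which leaves the CD8+ cells untouched by antibody. The unstimulated group was fresh cells, the control group was cells stimulated for 72 h with antibodies to CD3 and CD28 fixed to the plate and no magnets, and the SMF group was cells stimulated in the same way for 72 h on permanent magnets that gave a static magnetic field of 0.3 T. Each of the 3 groups had 2 libraries. The labels do not say whether these came from separate mice or cultures, so the p values measure the spread between libraries, which may be technical.

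In a resting CD8+ T cell, a program of naive and memory factors is kept up by the relatives TCF-1, the product of *Tcf7*, and LEF-1, together with FOXO1 and BACH2. After the T cell receptor is engaged, the T-box factors T-bet (*Tbx21*) and EOMES and the repressors BLIMP-1 (*Prdm1*) and ZEB2 direct cells towards killing and cytokine secretion. The inhibitors ID2 and ID3 block the E proteins and are known for effector and memory cells, respectively. EOMES serves both programs, since it drives cytotoxic genes and is needed by memory cells.

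The depth differed between libraries. The bases covered, computed from the deposited coverage and transcript lengths, were 67.4 and 132 Mb for unstimulated cells, 64.4 and 172 Mb for control cells and 259 and 227 Mb for SMF-treated cells. By the folder dates in the file headers, replicate 1 of the unstimulated and control cells belonged to June 2017, replicate 2 of both to November 2017 and both SMF libraries to October 2018. Libraries of the same folder date are called a run here, since the sources do not say what the date marks. In any comparison with the SMF libraries, field and run therefore cannot be told apart, whereas control and unstimulated cells can be compared within each of 2 runs. The share of the summed FPKM taken by protein-coding genes also set the SMF libraries apart, at 69.2% and 68.7% in the SMF libraries against 49.1% to 50.5% in the other 4.

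The 6 markers of CD8 T cells, among them *Cd3e*, *Cd8a* and *Cd8b1*, were above 0 in all 6 libraries. *Cd8a* was listed at 92.5 and 105 FPKM in unstimulated cells, 35.5 and 60.0 FPKM in control cells and 192 and 186 FPKM in SMF-treated cells. By the tests described below, *Cd8a* and *Cd8b1* were called lower in control than in unstimulated cells (limma's adjusted p = 0.0884 and 0.157), and *Cd8a*, *Cd3d* and *Trac* were called higher under the field than without it (limma's adjusted p = 0.136, 0.136 and 0.159). Markers of other cells were present mainly in the unstimulated libraries. The 6 B cell markers reported summed to 134 and 105 FPKM in unstimulated cells, 23.3 and 8.46 FPKM in control cells and 4.85 and 2.71 FPKM in SMF-treated cells. *Cd79a*, a chain of the B cell receptor complex, was the most abundant of them at 57.2 and 44.8 FPKM in unstimulated cells. The 4 NK cell markers summed to 17.8 and 7.66 FPKM in unstimulated cells, led by *Ncr1* in replicate 1 at 10.8 FPKM, and were all listed at 0 after stimulation. The 7 myeloid markers summed to 123 and 155 FPKM in unstimulated cells, 47.0 and 53.8 FPKM in control cells and 41.1 and 50.5 FPKM in SMF-treated cells. Nearly all of what remained after stimulation was *Csf1r*, since *Lyz2*, the macrophage lysozyme, went from 42.4 and 74.0 FPKM to a listing at 0 in all 4 stimulated libraries. The 3 CD4 T cell markers summed to between 12.1 and 25.02 FPKM in all libraries, mostly from *Foxp3*, with *Cd4* itself between 0 and 4.68 FPKM. The 6 erythroid markers came almost wholly from *Alas2* and summed to 18.3 and 21.8 FPKM in unstimulated cells, 5.21 and 7.16 FPKM in control cells and 10.1 and 1.51 FPKM in SMF-treated cells. Of the 3 plasma cell markers, *Jchain* was at 2.64 and 6.49 FPKM in unstimulated cells and *Tnfrsf17* at 0 throughout. B cells are known to use *Bach2*, *Foxo1* and *Id3*, and NK cells *Eomes*, *Tbx21*, *Id2* and *Zeb2*, and the part of these cells in the values below was not tested.

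**Figure D1:**
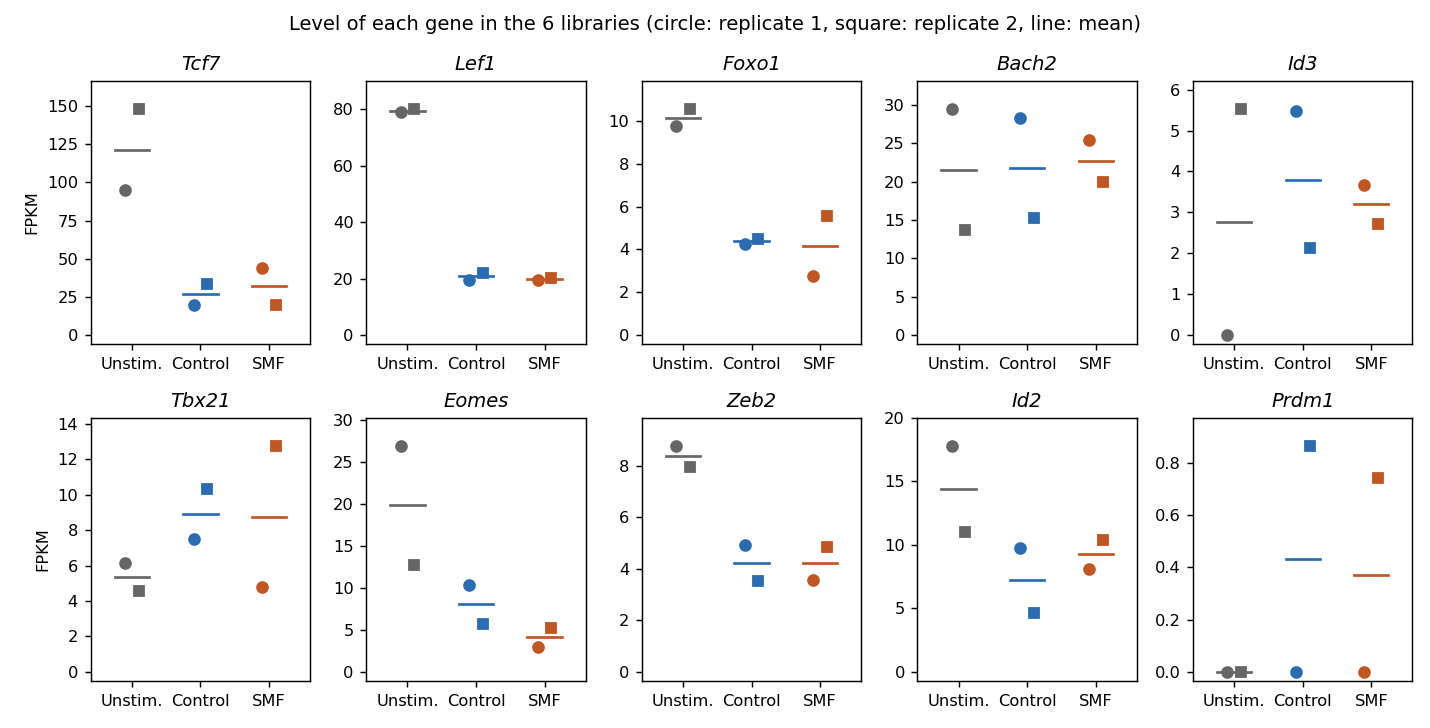
FPKM of the 10 genes (vertical axis, own scale in each panel) in unstimulated, control and SMF libraries. Points are single libraries and lines are group means. *Tcf7*, *Lef1*, *Foxo1*, *Zeb2*, *Eomes* and *Id2* lay lower in both control libraries than in both unstimulated libraries, while the 6 values of *Bach2* did not separate by group.

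Differences were tested with limma on log2(FPKM + 1), a scale that understates the changes of genes with low values, in a single fit of all 6 libraries. A gene was called higher or lower where the fitted difference was 2-fold or more and the unadjusted p was no higher than 0.05. The first comparison, of control with unstimulated cells, asks what 72 h of stimulation without magnets did. The unstimulated cells were fresh, so in comparisons with them stimulation and time in culture cannot be told apart. *Tcf7* fell 4.45-fold and *Lef1* 3.68-fold on this scale, and they were the 2 members called lower, and 0 members were called higher. Among all genes tested, 12.6% were called lower and 12.3% higher in this comparison. Both control libraries lay below both unstimulated libraries for 6 members (*Tcf7*, *Lef1*, *Foxo1*, *Eomes*, *Zeb2* and *Id2*) and above them for *Tbx21* alone, where the shares of all genes were 26.6% and 24.8%. The median log2 fold change of the 9 members was -0.95, against -0.05 for all genes. In these bulk samples, fewer cells of a type and less RNA per cell cannot be told apart.

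Among the naive and memory factors, *Tcf7* (chromosome 11, 52252371 to 52283014, minus strand, GRCm38) was the most abundant member in each of the 3 groups. It was listed at 95.1 and 148 FPKM in unstimulated cells, 20.0 and 33.5 FPKM in control cells and 44.1 and 19.7 FPKM in SMF-treated cells. Every stimulated library lay below both unstimulated libraries, and the SMF libraries spanned the control libraries. In control cells its log2 fold change against unstimulated cells was -2.15 ± 0.49 (SE, n = 2 and 2), with limma's adjusted p = 0.0508 over all genes. The difference was as large within each run, at -2.20 in June and -2.11 in November. The call was lost without unstimulated replicate 2 (-1.84) and, narrowly, without control replicate 1 (-1.79).

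The 2 annotated transcripts of *Tcf7* did not move alike. Tcf7-201 was listed at 86.0 and 129 FPKM in unstimulated cells, 14.1 and 8.51 FPKM in control cells and 22.1 and 19.1 FPKM in SMF-treated cells. Tcf7-202 was listed at 9.10 and 18.8 FPKM in unstimulated cells, 5.85 and 24.97 FPKM in control cells and 22.1 and 0.63 FPKM in SMF-treated cells. The first was lower in all 4 stimulated libraries, whereas the second overlapped between all groups and carried most of the gene in control replicate 2. How reads are split between transcripts that share exons is an estimate of StringTie, and the split was not tested. Both have 909 annotated coding bases and the same first coding base, and their starts lie 443 bases apart. Forms of *Tcf7* outside this annotation were not measured. The windows printed below lie before the annotated first coding base, and whether they hold coding bases of such forms was not tested. To show these starts, the RefSeq promoter windows that hold them are given (GRCm38.p6, minus strand, 5′ to 3′, 300 bases each, from 250 bases before to 50 after a RefSeq start), the window of Tcf7-201 at chr11:52282546-52282845 and that of Tcf7-202 at chr11:52282965-52283264. Capitals mark any match, on either strand, to 4 motifs, CTTTGA of the TCF/LEF factors, TGTTTAC of forkhead factors such as FOXO1, the E-box CAGGTG that ZEB2 and E proteins recognise, and CCGGAA of the ETS family.
Tcf7-201 window: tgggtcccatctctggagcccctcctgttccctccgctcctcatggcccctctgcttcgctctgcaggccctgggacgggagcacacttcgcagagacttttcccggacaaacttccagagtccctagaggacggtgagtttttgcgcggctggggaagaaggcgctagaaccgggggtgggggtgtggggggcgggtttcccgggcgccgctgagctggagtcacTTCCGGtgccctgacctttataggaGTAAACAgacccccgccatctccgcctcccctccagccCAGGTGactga
Tcf7-202 window: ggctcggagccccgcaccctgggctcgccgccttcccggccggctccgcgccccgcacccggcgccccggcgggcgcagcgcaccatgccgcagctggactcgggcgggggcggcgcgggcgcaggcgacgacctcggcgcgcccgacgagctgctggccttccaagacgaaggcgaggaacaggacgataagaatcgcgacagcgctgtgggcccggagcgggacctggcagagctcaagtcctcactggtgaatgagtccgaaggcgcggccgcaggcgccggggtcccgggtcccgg
In the Tcf7-201 window, 1 ETS match, 1 forkhead match and 1 E-box match were found, and in the Tcf7-202 window none of the 4. Of 32851 promoter windows of this length, 14.9% held an ETS match, 3.65% a forkhead match, 20.2% an E-box match and 16.0% a TCF/LEF match. Of the 17 windows of the 10 members, 2 held an ETS match, 2 a forkhead match, 4 an E-box match and 2 a TCF/LEF match. A match is a description of letters and not a bound site.

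*Lef1* (chromosome 3, 131110471 to 131224356, plus strand), a close relative of *Tcf7*, varied little between replicates. It was listed at 79.0 and 80.1 FPKM in unstimulated cells, 19.7 and 22.1 FPKM in control cells and 19.4 and 20.4 FPKM in SMF-treated cells. Its log2 fold change in control against unstimulated cells was -1.88 ± 0.28 (SE), with limma's adjusted p = 0.0190, and it was -1.95 within the June run and -1.81 within the November run. The call remained in each of the 6 removals of a library. Removal of an SMF library leaves fold changes of control against unstimulated cells as they are and alters only their standard errors, here and in the removals reported below. Its transcripts varied more than the gene, as Lef1-201 was at 47.6 and 40.0 FPKM in unstimulated cells, 17.4 and 18.9 FPKM in control cells and 4.87 and 8.03 FPKM in SMF-treated cells. Lef1-203, which starts inside the gene and has 993 coding bases against 1191 in Lef1-201, was at 32.5 FPKM in unstimulated replicate 2, 14.4 FPKM in SMF replicate 1 and 0 in the other 4 libraries. Coding transcripts held 39.5% of *Lef1* in SMF replicate 2 and 72.3% to 99.3% in the other 5, the rest being mostly retained introns. *Gm43352*, a gene on the opposite strand that shares 1208 exon bases with *Lef1*, went from 369 and 390 FPKM in unstimulated cells to 44.5 and 69.0 FPKM in control cells and 22.6 and 17.3 FPKM in SMF-treated cells, and its part in the values of *Lef1* was not tested.

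*Foxo1* (chromosome 3, 52268336 to 52353221, plus strand), which drives *Il7r* and *Klf2* in resting T cells, has 1 annotated transcript here. It was listed at 9.74 and 10.5 FPKM in unstimulated cells, 4.27 and 4.48 FPKM in control cells and 2.78 and 5.54 FPKM in SMF-treated cells. Both stimulated groups lay below the unstimulated one without overlap. The log2 fold change in control cells, -1.05 ± 0.48 (SE), missed the threshold (limma's adjusted p = 0.226), with -1.03 and -1.07 within the 2 runs. *Gm20402*, opposite to *Foxo1* over 674 exon bases, was at 1041 and 677 FPKM in unstimulated cells, 428 and 297 FPKM in control cells and 181 and 167 FPKM in SMF-treated cells.

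*Bach2* (chromosome 4, 32238804 to 32586108, plus strand), a repressor that holds back effector genes, did not separate by group. It was listed at 29.4 and 13.7 FPKM in unstimulated cells, 28.3 and 15.2 FPKM in control cells and 25.4 and 20.0 FPKM in SMF-treated cells. The fitted log2 fold change in control cells was 0.05, with a 95% interval from -1.17 to 1.26, so that a 2-fold change in either direction lies within it. The replicates differed more than the groups, and the difference was -0.05 within the June run and 0.14 within the November run. With a replicate block the 95% interval was narrower, from -0.90 to 0.99, and stayed within 2-fold. That block also pairs the SMF libraries by number, although they share no run with the others. In 5 of the 6 libraries, more of this value came from a transcript that does not code for the protein than from coding ones. Bach2-206, a non-coding transcript of 331 bases, made up 23.5 and 7.68 FPKM in unstimulated cells, 20.9 and 12.1 FPKM in control cells and 12.3 and 11.7 FPKM in SMF-treated cells. The coding transcripts were at 5.95 and 5.98 FPKM, 7.41 and 2.09 FPKM, and 13.1 and 8.24 FPKM in the 3 groups in that order, which put both SMF libraries above the other 4. The same held for 38.1% of all genes by their coding transcripts, whose median log2 fold change in SMF against control cells was 0.62. *Bach2os*, opposite to *Bach2* over 537 exon bases, was at 69.2 and 85.3 FPKM in unstimulated cells, 155 and 219 FPKM in control cells and 157 and 77.4 FPKM in SMF-treated cells.

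*Id3* (chromosome 4, 136143497 to 136145755, plus strand) was a low gene here, at 0 and 5.52 FPKM in unstimulated cells, 5.47 and 2.12 FPKM in control cells and 3.67 and 2.73 FPKM in SMF-treated cells. The 0 stood in unstimulated replicate 1, whose depth was 67.4 Mb, while control replicate 1, at 64.4 Mb, was at 5.47 FPKM. The fitted log2 fold change in control cells, 0.82 with a 95% interval from -1.53 to 3.16, rested on unstimulated replicate 1. Without that library the value was -0.54, and without unstimulated replicate 2 it was 2.17. Within the runs it was 2.69 in June and -1.06 in November, so no direction can be given for *Id3*.

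**Figure D2:**
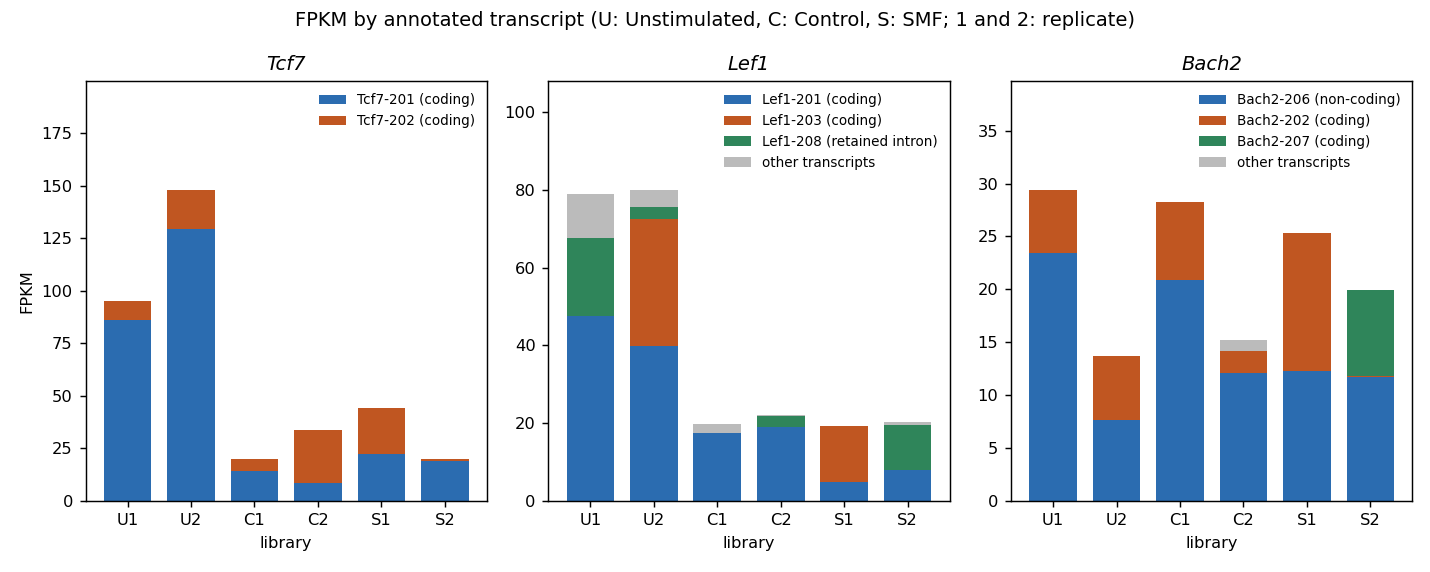
FPKM of the annotated transcripts of *Tcf7*, *Lef1* and *Bach2* in each library, stacked so that a bar's height is the level of the gene (vertical axis from 0, own scale in each panel). Tcf7-201 shrank in all 4 stimulated libraries, the make-up of *Lef1* differed between libraries of the same height, and the non-coding Bach2-206 was the largest part of *Bach2* in 5 of the 6 libraries.

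Of the T-box factors, *Tbx21* (chromosome 11, 97098071 to 97115331, minus strand) was the only member with both control libraries above both unstimulated libraries. It was listed at 6.15 and 4.57 FPKM in unstimulated cells, 7.47 and 10.3 FPKM in control cells and 4.76 and 12.7 FPKM in SMF-treated cells. The separation from unstimulated cells was narrow, and the SMF libraries spanned every other value but one. The log2 fold change in control cells was 0.64 ± 0.55 (SE), short of the threshold (limma's adjusted p = 0.505), with 0.24 within the June run and 1.03 within the November run. *Eomes* (chromosome 9, 118478212 to 118486132, plus strand) stood at 26.9 and 12.7 FPKM in unstimulated cells, 10.3 and 5.73 FPKM in control cells and 2.97 and 5.26 FPKM in SMF-treated cells. The 3 groups lay in this order without overlap, although control replicate 2 and SMF replicate 2 were close. The log2 fold change in control cells was -1.16 ± 0.56 (SE; limma's adjusted p = 0.247), and it was -1.30 in June and -1.03 in November. In the removals of a library it ranged from -1.67 (without unstimulated replicate 2) to -0.65 (without unstimulated replicate 1), without a call. *Gm33460*, opposite to *Eomes* over 118 exon bases, was at 134 and 146 FPKM in unstimulated cells, 131 and 57.4 FPKM in control cells and 10.6 and 40.5 FPKM in SMF-treated cells. The split of *Eomes* between its transcripts changed from library to library, since Eomes-201 held 21.01 FPKM in unstimulated replicate 1 and 0.43 FPKM in replicate 2, where Eomes-202 held 11.4 FPKM.

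*Zeb2* (chromosome 2, 44983632 to 45117395, minus strand), a zinc finger repressor of terminal effector cells, was listed at 8.76 and 7.95 FPKM in unstimulated cells, 4.91 and 3.51 FPKM in control cells and 3.57 and 4.85 FPKM in SMF-treated cells. The gene total was lower in all 4 stimulated libraries, with a log2 fold change of -0.86 ± 0.45 (SE) in control cells that missed the threshold (limma's adjusted p = 0.290). The coding transcripts of *Zeb2* showed another picture, at 4.57 and 1.19 FPKM in unstimulated cells, 3.98 and 1.63 FPKM in control cells and 2.06 and 2.49 FPKM in SMF-treated cells, where the groups overlapped. Zeb2-206, a non-coding transcript of 432 bases, accounted for 4.196 and 6.16 FPKM in unstimulated cells and 0 and 1.88 FPKM in control cells. *Zeb2os*, opposite to *Zeb2* over 653 exon bases, was at 22.5 and 15.3 FPKM in unstimulated cells, 3.83 and 14.4 FPKM in control cells and 0 and 0.989 FPKM in SMF-treated cells.

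*Id2* (chromosome 12, 25093799 to 25097140, minus strand) was listed at 17.8 and 11.01 FPKM in unstimulated cells, 9.78 and 4.64 FPKM in control cells and 8.11 and 10.4 FPKM in SMF-treated cells. Both stimulated groups lay below the unstimulated one. The log2 fold change in control cells was -0.95 ± 0.50 (SE; limma's adjusted p = 0.289), and it was -1.41 and called without control replicate 1 but -0.48 without control replicate 2 and -0.62 without unstimulated replicate 1. *Prdm1* (chromosome 10, 44437177 to 44528501, minus strand) was the lowest member, listed at 0 in 4 libraries and at 0.865 FPKM in control replicate 2 and 0.742 FPKM in SMF replicate 2. With no more than 1 library above 0 in a group, no fold change is given. A listing at 0 is not evidence of absence at these depths, since the files hold no read counts from which a limit could be set.

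**Figure D3:**
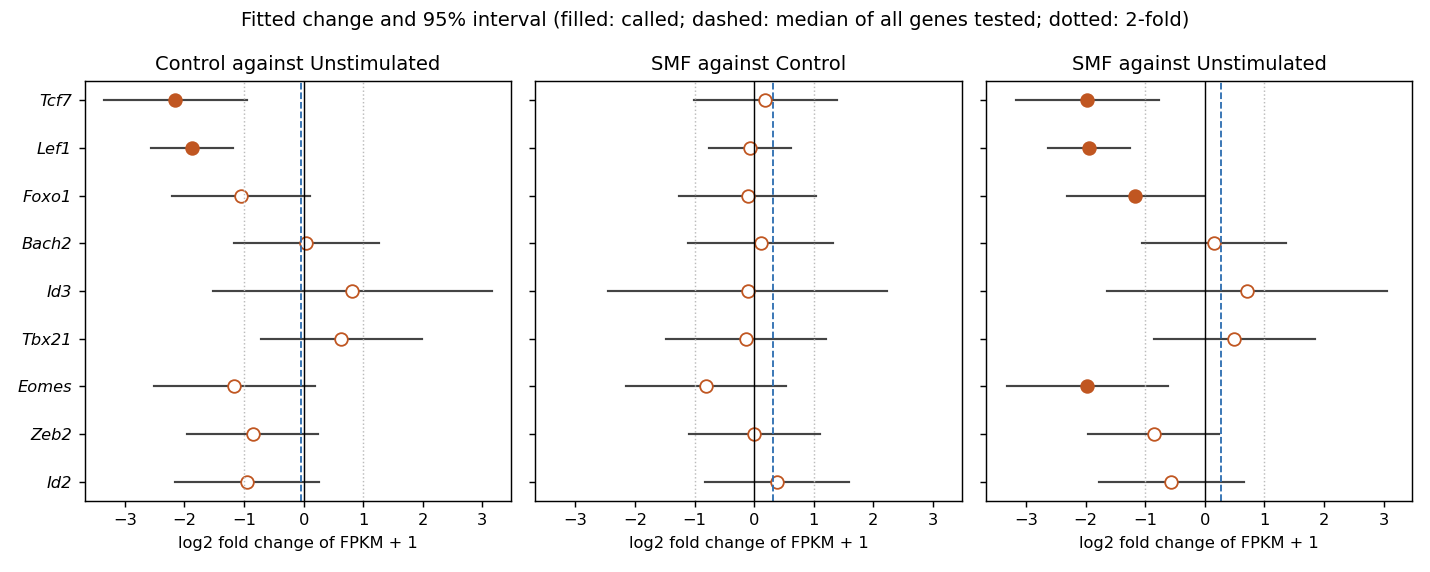
Fitted log2 fold change of FPKM + 1 (horizontal axis) with its 95% interval for the 9 members tested, in 3 comparisons that come from a single fit and share libraries. Filled points are called, the dashed line is the median of all genes tested and dotted lines mark 2-fold. *Tcf7* and *Lef1* sit between -2.15 and -1.88 in both comparisons with unstimulated cells, and in SMF against control cells every interval includes 0.

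The second comparison, of SMF-treated with control cells, asks what the field added to 72 h of stimulation. None of the members was called (0 higher and 0 lower by limma, and 0 of the 9 with an unadjusted p under 0.05). Among all genes tested, 12.5% were called higher and 5.72% lower, and 4 genes had an adjusted p under 0.05 and 3159 an unadjusted p under 0.05. The fitted values of the members ranged from -0.81 for *Eomes* to 0.39 for *Id2*, with a median of -0.07 against 0.32 for all genes. That general shift varied with the setting, as the median of all genes tested was 0.42 with TPM and 0.62 with coding transcripts only. With the medians of the libraries set equal it was -0.04, but that scaling removes such a shift by construction. *Eomes* was the 1 member for which both SMF libraries lay below both control libraries, and 0 lay above, where 17.4% and 37.4% of all genes did so. Its log2 fold change of -0.81 had a 95% interval from -2.16 to 0.54 (limma's adjusted p = 0.435). The value ranged from -1.18 to -0.43 in the removals of a library and was -1.17 with library medians set equal, without a call. In the same comparison 3 of the 6 markers of CD8 T cells were called higher, with a median log2 fold change of 1.02 over the 6, and their part in the values of the members was not tested.

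How far a difference can be bounded varied between the members. For *Lef1* the log2 fold change was -0.07 with a 95% interval from -0.76 to 0.62, and *Lef1* was the only one of the 9 members whose interval lay within 2-fold in both directions. This bound did not hold under every setting, since the interval began at -1.12 with library medians set equal, at -1.12 with quantile normalization and at -1.61 with coding transcripts only. For *Tcf7* the interval ran from -1.01 to 1.38, for *Tbx21* from -1.49 to 1.21, for *Id2* from -0.82 to 1.60 and for *Bach2* from -1.10 to 1.32. For *Foxo1* it ran from -1.27 to 1.05 and for *Zeb2* from -1.10 to 1.10, while *Id3* had the widest, from -2.45 to 2.24. The SMF replicates differed more from each other than the group means did for *Tcf7* (44.1 and 19.7 FPKM) and *Tbx21* (4.76 and 12.7 FPKM), in opposite directions, since SMF replicate 1 had the more *Tcf7* and the less *Tbx21*.

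In the third comparison, SMF-treated with unstimulated cells, 4 members were called lower (*Tcf7*, *Lef1*, *Eomes* and *Foxo1*) and 0 higher, where 14.8% and 22.4% of all genes were called. Both SMF libraries lay below both unstimulated libraries for 6 members and above for 0, against 26% and 39.7% of all genes. This comparison shares the unstimulated libraries with the first, so its falls are not independent of those. *Lef1* fell by 1.95 on the log2 scale (limma's adjusted p = 0.00888), *Tcf7* by 1.97 (adjusted p = 0.0356 in limma) and *Eomes* by 1.97 (adjusted p = 0.0489 in limma). *Foxo1* fell by 1.16, with an unadjusted limma p of 0.0491, an adjusted p of 0.126 and an interval that ended at -0.01. The call of *Foxo1* was lost under 6 of the other settings and under 5 of the 6 removals of a library. The call of *Eomes* was lost without unstimulated replicate 1 (-1.46) or SMF replicate 1 (-1.64), and that of *Tcf7* without unstimulated replicate 2 (-1.65).

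By mean FPKM, *Tcf7* and *Lef1* stood first among the members in unstimulated cells, above 95.6% and 93.2% of the genes tested, and neither overlapped with *Bach2* or *Eomes*, the next in order. In control cells the first places went to *Tcf7* (26.7 ± 9.55 FPKM, SD, n = 2), *Bach2* (21.7 ± 9.26) and *Lef1* (20.9 ± 1.73), whose values overlapped. In SMF-treated cells the same 3 genes led, at 31.9 ± 17.3, 22.7 ± 3.81 and 19.9 ± 0.688 FPKM, again with overlap between *Tcf7* and the others. These ranks use gene totals, which include non-coding transcripts. The coding transcripts of *Bach2* were at 5.95 and 5.98 FPKM in unstimulated, 7.41 and 2.09 FPKM in control and 13.1 and 8.24 FPKM in SMF-treated cells. Its high rank therefore rests largely on non-coding transcripts. *Tbx21* took rank 8 of the 10 in unstimulated cells (5.36 ± 1.12 FPKM), rank 4 in control cells (8.91 ± 2.03) and rank 5 in SMF-treated cells (8.75 ± 5.64), and in the stimulated groups it overlapped with its neighbours *Eomes* or *Id2*.

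Ratios within a library are nearly free of how a whole library is scaled. The log2 ratio of *Tbx21* to *Eomes* (FPKM + 1) was -1.96 and -1.30 in unstimulated cells, -0.42 and 0.75 in control cells and 0.54 and 1.13 in SMF-treated cells. All 4 stimulated libraries lay above both unstimulated libraries, and control and SMF overlapped. The ratio of *Tbx21* to *Tcf7* was -3.75 and -4.74 in unstimulated cells, -1.31 and -1.60 in control cells and -2.97 and -0.59 in SMF-treated cells, and it separated unstimulated from stimulated libraries in the same way. The ratio of *Id2* to *Id3* was 4.23 in unstimulated replicate 1, where *Id3* was at 0, and between 0.74 and 1.62 in the other 5 libraries. *Prdm1* to *Bach2* lay between -4.93 and -3.12 and overlapped between all groups. Where *Prdm1* was at 0, this ratio held the value of *Bach2* alone, so the overlap says little of *Prdm1*. With 2 libraries a group, no exact permutation test of these ratios between 2 groups can reach 0.05. The ratios were not tested.

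**Figure D4:**
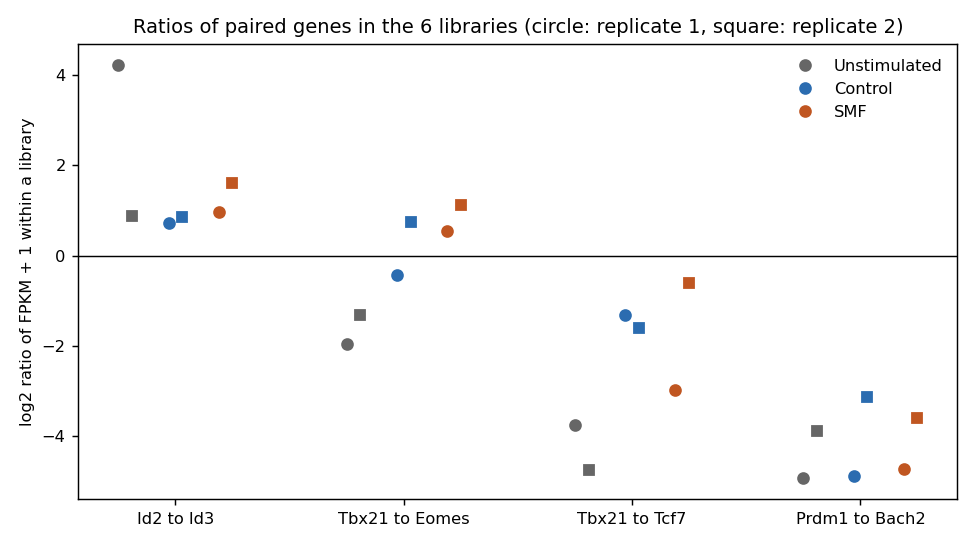
Log2 ratio of FPKM + 1 between paired genes (vertical axis) within each library, by pair (horizontal axis) and group (colour). *Tbx21* to *Eomes* and *Tbx21* to *Tcf7* lay higher in all 4 stimulated libraries than in the unstimulated ones, with no separation between control and SMF.

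The genes on which these factors are known to act were followed through lists named by their function. Of 7 targets of the naive and memory factors, all tested, 4 were called lower and 1 higher in control than in unstimulated cells (median log2 fold change -1.16), where 12.6% and 12.3% of all genes were called. *S1pr1*, the receptor that lets T cells leave lymphoid organs, fell from 45.6 and 50.6 FPKM to 1.499 and 2.001 FPKM (log2 fold change -4.16, limma's adjusted p = 0.00964) and stood at 0.972 and 0.551 FPKM in SMF-treated cells. *Cxcr5* fell by 2.33, *Il7r*, the IL-7 receptor chain, by 1.44 and *Cd27*, a costimulatory receptor, by 1.16 on the log2 scale, with limma's adjusted p between 0.0707 and 0.122. Markers of B cells and NK cells also fell in this comparison, and the part of these cells in the falls of the targets was not tested. *Ccr7*, the chemokine receptor of naive and central memory cells, went the other way, from 20.7 and 42.2 FPKM in unstimulated cells to 84.5 and 111 FPKM in control cells and 93.8 and 104 FPKM in SMF-treated cells (log2 fold change 1.68, limma's adjusted p = 0.0531). *Slamf6* and *Bcl2* were not called. The calls of *S1pr1* and *Ccr7* remained in each of the 6 removals of a library, whereas those of *Il7r* and *Cxcr5* were lost in 3 and that of *Cd27* in 5. The number called lower was 1 without unstimulated replicate 1 or control replicate 2 and 2 without unstimulated replicate 2. In SMF against control cells 0 of the 7 were called, where 12.5% of all genes were called higher and 5.72% lower. Both SMF libraries lay below both control libraries for 4 of the 7 and above for 1, where 17.4% and 37.4% of all genes did so. The number called lower depended on scaling, at 2 with library medians set equal and 1 with quantile normalization. Under these scalings 1485 and 1215 of the 14991 genes tested were called lower. Without SMF replicate 2, 1 of the 7 was called lower.

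Of 10 targets of the effector factors, 8 were tested, and 5 were called higher and 1 lower in control than in unstimulated cells, against 12.3% and 12.6% of all genes. *Gzmb*, granzyme B, rose from 10.2 and 11.7 FPKM to 1494 and 1565 FPKM (log2 fold change 7.01, limma's adjusted p = 0.00184), and *Ifng* from 26.3 and 12.7 FPKM to 310 and 175 FPKM (3.59, limma's adjusted p = 0.0142). *Prf1*, perforin, rose by 1.91, *Fasl*, the Fas ligand, by 2.14 and *Il2rb*, a chain of the IL-2 and IL-15 receptors, by 1.27 on the log2 scale, with limma's adjusted p of 0.103, 0.139 and 0.0639. *Gzma*, granzyme A, went from 77.7 and 38.2 FPKM to 18.3 FPKM and a listing at 0, and was listed at 0 in both SMF libraries. The NK cell markers were all listed at 0 after stimulation, and the part of NK cells in the fall of *Gzma* was not tested. *Klrg1*, the marker of terminal effector cells, was listed at 0 in all 6 libraries, *Cx3cr1* was at most 0.182 FPKM after stimulation, and *Cxcr3* was not called. The calls of *Gzmb*, *Ifng* and *Il2rb* remained in each removal of a library, those of *Prf1* and *Fasl* were lost in 4 of the 6 and that of *Gzma* in 5. The number called higher was 3 without either control library and 4 in each of the other removals. In SMF against control cells *Gzmb* was called higher (2282 and 4283 FPKM, log2 fold change 1.03, limma's adjusted p = 0.179) and *Ccl5* lower (14.0 and 10.9 FPKM in control cells, 0.472 and 6.56 FPKM in SMF-treated cells, log2 fold change -2.004, adjusted p = 0.233 in limma). This was 1 of the 8 in each direction, against 12.5% and 5.72% of all genes. Both calls were lost in 5 of the 6 removals of a library. That of *Gzmb* was also lost with library medians set equal and with no variance trend, and that of *Ccl5* under 6 other settings, among them both other pseudocounts, TPM and coding transcripts only.

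**Figure D5:**
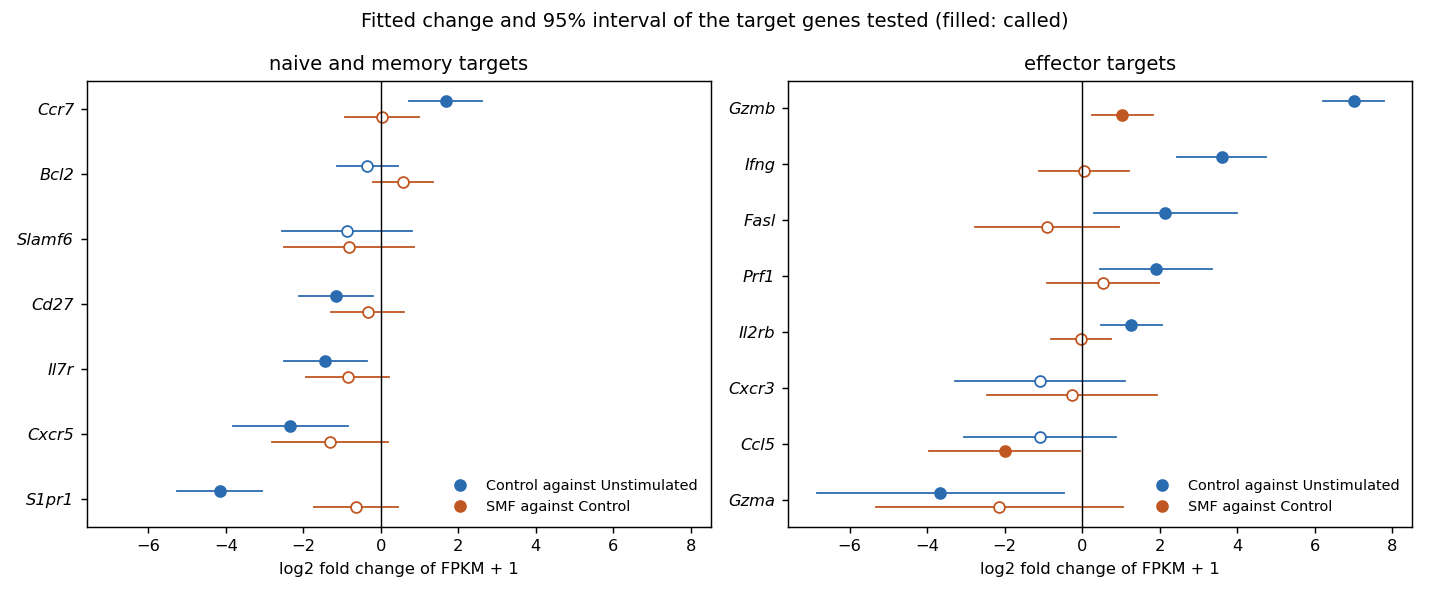
Fitted log2 fold change of FPKM + 1 (horizontal axis) with 95% intervals for the target genes tested, in control against unstimulated cells and in SMF against control cells. Filled points are called: in the first comparison 4 of 7 naive and memory targets are filled below 0 and *Gzmb* and *Ifng* reach 7.01 and 3.59, while in the second *Gzmb* and *Ccl5* are the only filled points.

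Of 28 other regulators of the same decisions, 26 were tested, with 7 called higher and 4 lower in control than in unstimulated cells, where 12.3% and 12.6% of all genes were called. The number called higher was 4 without unstimulated replicate 1 or control replicate 1, and the number called lower was 6 without control replicate 2. *Irf4*, a factor induced through the T cell receptor, rose from 3.79 and 3.12 FPKM to 38.2 and 39.3 FPKM (log2 fold change 3.16, limma's adjusted p = 0.00800) and stood at 76.5 and 74.9 FPKM in SMF-treated cells. Its relative *Irf8* rose by 2.24, *Bhlhe40* by 2.41, *Nfil3* by 2.54, *Stat3* by 2.15, the oxygen-regulated factor *Hif1a* by 1.95 and *Runx3*, which keeps up the CD8 lineage, by 1.51. *Klf2*, which drives *S1pr1*, fell from 52.7 and 76.5 FPKM to 0 and 0.524 FPKM in control cells and was at 0 and 2.56 FPKM in SMF-treated cells. *Klf3* fell by 2.56, *Runx1* by 2.38 and *Ets1* by 1.33 on the log2 scale. The calls of *Irf4*, *Irf8*, *Bhlhe40*, *Klf2*, *Klf3* and *Ets1* remained under every alternative run. The call of *Hif1a* was lost in 5 of the 6 removals of a library, those of *Nfil3* and *Runx3* in 3, that of *Stat3* in 2 and that of *Runx1* in 1. *Satb1*, *Ikzf3* and *Stat4* were the most abundant of those not called. In SMF against control cells *Batf*, *Cbfb*, the partner of the RUNX factors, and *Ikzf1* were called higher. Their log2 fold changes were 1.47, 1.29 and 1.01, with limma's adjusted p of 0.168, 0.168 and 0.199. *Batf* was at 4.46 and 7.98 FPKM in control and 20.3 and 16.7 FPKM in SMF-treated cells. Of the 26 tested, 3 were called higher and 0 lower, where 12.5% and 5.72% of all genes were. With coding transcripts only, 3 were called higher and 2 lower, where 1694 and 240 of 9559 genes were. With library medians set equal, the calls of *Cbfb* and *Ikzf1* were lost and that of *Batf* remained. Without SMF replicate 1 the call of *Batf* was lost, and those of *Cbfb* and *Ikzf1* were lost in 2 and 4 of the 6 removals of a library.

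Of 19 partners and relatives of the members, such as E proteins, corepressors and other FOXO factors, 15 were tested, and 2 were called lower and 0 higher in control cells, close to the 12.6% of all genes called lower. The number called lower was 3 with library medians set equal, quantile normalization or no variance trend, and 4 of 16 with TPM. It was 1 of 15 with coding transcripts only and 1 of 10 with a mean of at least 5 FPKM. *Aes*, a short member of the Groucho family of corepressors for TCF-1 and LEF-1, fell from 104 and 62.0 FPKM to 26.0 and 26.0 FPKM (log2 fold change -1.59, limma's adjusted p = 0.117), and *Bach1* from 6.81 and 3.82 FPKM to 0 and 1.28 FPKM (-2.02, limma's adjusted p = 0.114). The call of *Aes* was lost in 4 of the 6 removals of a library and that of *Bach1* in 2. Neither was called without control replicate 1 or with coding transcripts only. The E proteins that the ID factors inhibit, *Tcf3* and *Tcf12*, were at 9.52 and 12.8 FPKM and at 8.59 and 9.91 FPKM in unstimulated cells and at 5.72 and 21.3 FPKM and 16.1 and 11.5 FPKM in control cells, with neither called. *Foxo4*, *Ctnnb1*, which encodes the TCF-1 partner β-catenin, and *Foxp1* were the most abundant of the rest. In SMF against control cells the corepressor *Tle4* was called higher (1.74, limma's adjusted p = 0.226) and *Bcl6* lower (-1.50, adjusted p = 0.224 in limma). This was 1 of the 15 in each direction, where 12.5% of all genes were called higher and 5.72% lower. The call of *Tle4* was lost in 5 of the 6 removals of a library and under 5 other settings, among them library medians set equal and quantile normalization, and that of *Bcl6* in 3 removals, and with a replicate block neither was called. With library medians set equal or quantile normalization, 0 were called higher and 3 lower. Over all genes, 815 were then called higher and 1485 lower with medians set equal, and 1030 and 1215 with quantile normalization.

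Across the 9386 genes outside the members with a mean of at least 5 FPKM, those whose log2(FPKM + 1) followed *Tcf7* most closely over the 6 libraries were *Pglyrp2* (Pearson's r = 0.999), *Snx11* (0.992) and *Nlrc3* (0.986). *Pglyrp2* was listed at 10.1 and 18.0 FPKM in unstimulated cells, 0 and 0.919 FPKM in control cells and 2.14 and 0 FPKM in SMF-treated cells, and so shared with *Tcf7* the higher replicate in each group. Those most like *Tbx21* were *Mettl14* (0.956), *Phf11b* (0.952) and *Xaf1* (0.950), and *Xaf1* was at 2.91 and 48.5 FPKM in the SMF libraries, where *Tbx21* was at 4.76 and 12.7 FPKM. These coefficients describe 6 libraries of 3 groups, which share stimulation, run and depth, and carry no test.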

How the data were processed

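RNA was measured by RNA-Seq in 6 libraries, 2 for each of 3 groups, which were taken from the sample titles. Submitters' processing notes name Trimmomatic 0.36, HISAT2 and StringTie, and per the file headers StringTie 1.3.5 was run on GENCODE M19 transcripts (mm10, that is GRCm38) with stranded reads. The authors deposited FPKM, TPM (both normalized for transcript length and library size) and coverage for each transcript, with no read counts. FPKM was summed here over the transcripts of each of the 54446 genes; 37 mitochondrial genes were listed at 0 in every library. The 3 value columns of a further deposited FPKM table matched no sample and were not used.

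Genes whose mean level reached 1 FPKM were fitted on log2(FPKM + 1) with limma 3.58.1 in R 4.3.3, with 3 groups, a variance trend and 3 residual degrees of freedom, after the procedure had been tested on simulated data. Calls followed the thresholds of the study's methods, and p values were adjusted over all 14991 genes by the Benjamini-Hochberg method. The members and lists were chosen with earlier results of these data known. Some genes of these lists are not reported here and were left out of their counts and sums. Named were every member, every called gene of the lists of targets, regulators and partners with up to 3 of the most abundant uncalled ones, and the 3 genes most like *Tbx21* and *Tcf7*. The replicate numbers pair unstimulated with control libraries through the folder dates in the headers, whose meaning the sources do not give. The differences between replicates correlated across genes with r = 0.096 between these 2 groups. Transcript types came from GENCODE M21 (113 of 137767 transcripts not matched). Alternatives were other pseudocounts, filters, scalings, TPM, no trend, a replicate block, values within a run, removal of each library and, added after the data were seen, coding transcripts only.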

Additional observations from a re-analysis of the deposited data

How the results depend on the processing

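Of 429 fitted member values under alternatives, 374 kept their direction and call, 35 changed sign, none of them with a p under 0.05, 16 lost a call and 4 gained one. Other filters, no variance trend, a replicate block and removal of a library outside the comparison leave the fold change as it was by construction. The same holds with coding transcripts only for members whose transcripts all code. Part of the 374 could therefore not have changed direction. Of 18 values within a run, which carry no test, 2 had the other sign (*Bach2* in June and *Id3* in November). With 2 libraries a group, 3 residual degrees of freedom and depths from 64.4 to 259 Mb, most intervals include a 2-fold change, and values near 0 changed sign easily. The causes were not tested.

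Without 1 library at a time, 0 to 1 members were called higher and 1 to 2 lower in control against unstimulated cells, and 0 to 1 higher and 2 to 4 lower in SMF against unstimulated cells. In both comparisons the member called higher was *Id3*, without unstimulated replicate 2. The falls of *Lef1* kept their calls under every alternative run. Log2 fold changes in control against unstimulated cells then ranged from -0.48 to 0.57 for *Bach2* and from -0.54 to 2.17 for *Id3*. In SMF against control cells they ranged from -0.32 to 0.54 for *Bach2*, -0.51 to 0.28 for *Foxo1*, -0.079 to 0.85 for *Id2*, -0.63 to 0.42 for *Id3*, -0.15 to 0.012 for *Lef1*, -0.77 to 0.49 for *Tbx21*, -0.38 to 0.75 for *Tcf7* and -0.19 to 0.20 for *Zeb2*. In SMF against unstimulated cells they ranged from -0.37 to 0.68 for *Bach2*, -0.64 to 2.06 for *Id3* and -0.13 to 1.123 for *Tbx21*.

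With library medians set equal, SMF against control gave -0.17 for *Tcf7*, -0.25 for *Bach2* and -0.36 for *Zeb2*, and with quantile normalization -0.12, -0.23 and -0.29. SMF against unstimulated cells gave -0.25 and -0.14 for *Bach2* under these scalings, and *Zeb2* was called at -1.26 with medians set equal. With TPM, *Bach2* was at -0.092 in control against unstimulated cells, and *Lef1* was at 0.061 and *Id3* at 0.0056 in SMF against control cells. With coding transcripts only, *Bach2* was at -0.45 and *Zeb2* at 0.052 in control against unstimulated cells, and *Id3* was at 0.034, *Zeb2* at -0.15, *Lef1* at -0.52 and *Bach2* at 1.16 (95% interval -0.26 to 2.58, in place of 0.11) in SMF against control cells.

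Over all genes in SMF against control cells, 1868 were called higher and 857 lower, a share of 68.6% higher. With library medians set equal these were 815 and 1485 (35.4%), with quantile normalization 1030 and 1215 (45.9%) and with coding transcripts only 1694 and 240 (87.6%). In SMF against unstimulated cells the share higher was 60.1%, and 44.5% with medians set equal or 76.0% with coding transcripts only. With a replicate block, 3 members in place of 4 were called lower in SMF against unstimulated cells, since *Foxo1* (-1.16) was lost, and no other call of a member changed. The SMF libraries share no run with the others, so their numbers pair no samples. Of 31 calls among the targets, regulators and partners in control against unstimulated and SMF against control cells, 11 remained under every alternative run, 20 were lost in at least 1 removal of a library and 0 changed sign, where calls gained under an alternative are not counted.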
